A study of Mus musculus with 18 samples.

Results

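Pou5f1 (which encodes Oct4), Sox2 and Klf4 are the 3 transcription factors of the TRE-OSK vector, and their rows were taken by gene symbol from a table of read counts per gene. All 3 were found among its 21859 rows, 1 row each. The table holds 18 libraries of mouse retinal pigment epithelium (RPE), a single layer of pigmented cells behind the photoreceptors. They form 4 groups: untreated Young mice (7 libraries), untreated Old mice (4), Old mice given AAV2-tTA (called Old control, 3), and Old mice given AAV2-tTA with TRE-OSK (called Old OSK, 4). AAV2 stands for a serotype of adeno-associated virus used to carry genes. The protein tTA is an activator controlled by tetracycline, and TRE is the promoter on which it acts. Old control thus carries the activator without the factors, and Young and Old carry neither. Strain, age in months, vector dose and the time between vector and sampling are not given in the labels used here, nor is the cell type that transcribes tTA. The labels do not say that replicates came from separate animals, so p-values measure the spread between these libraries.

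Oct4 binds DNA through a POU domain, Sox2 through an HMG box and Klf4 through C2H2 zinc fingers. In embryonic stem cells Oct4 and Sox2 bind side by side at many enhancers and, with Klf4, hold the pluripotent state; delivered together they can reprogram somatic cells. Outside the embryo the 3 genes differ. Pou5f1 is silent in nearly all adult tissues, Sox2 is kept in retinal Müller glia and some amacrine cells, and Klf4 is strongly transcribed in surface epithelia such as cornea and conjunctiva.

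Library totals lay between 18104828 and 32348136 counts, and 15944 genes passed the low-count filter, all 3 factors among them. Levels are CPM (counts scaled to a fixed library total, after TMM scaling), and a gene is called when its edgeR adjusted p over all 15944 genes is under 0.05. The 10 RPE marker genes summed to between 15480 and 67420 CPM in every library, so RPE transcripts were abundant in each, although Best1 stayed at 0.4 to 2.57 CPM. The sum ran from 20680 to 64040 CPM in Old control and from 15480 to 30530 CPM in Old OSK. Between these groups the median log2 fold change of the 10 was -0.96, with 1 of them positive. There edgeR called 0, and DESeq2, used below as an alternative, called 4 lower, against 10.2% of all genes in either direction. Markers of other tissues were present too. The 5 genes of surface epithelium (Krt5, Krt12, Krt13, Krt14, Trp63) summed to 98.0 CPM in Young replicate 7 but to 11420 CPM in Old replicate 4 and to 15520, 10450, 9719 and 1745 CPM in Old OSK replicates 1 to 4. The 8 rod genes summed to 17150 CPM in Old control replicate 2, against 3103 and 1435 CPM in the other Old control libraries, and to 14480 CPM in Old OSK replicate 4. In bulk RNA, more cells of a type and more RNA per cell cannot be told apart. The library names of 6 libraries also hold an unexplained letter M (3 Young, 2 Old control, 1 Old OSK), taken below as a possible batch.

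In the genome each factor has its own promoter, whereas the vector is named for TRE. The 250 bases before each gene's RefSeq start are shown to give the endogenous control regions that the vector factors do not need. They come from RefSeq (GRCm38.p6). For Sox2 the GENCODE transcript starts 410 bases further downstream than the RefSeq gene, so its window ends that far before the GENCODE start; for Pou5f1 and Klf4 both starts lie within 14 bases. Pou5f1 lies at chr17:35506032-35510777 on the plus strand (5 exons), Sox2 at chr3:34649995-34652461 on the plus strand (1 exon, inside the span of the long noncoding RNA gene Sox2ot on the same strand, not analysed here) and Klf4 at chr4:55527137-55532475 on the minus strand (5 exons). The windows are chr17:35505782-35506031 for Pou5f1, chr3:34649745-34649994 for Sox2 and chr4:55532476-55532725 for Klf4, written 5′ to 3′ on the gene's strand. Capitals mark matches, on either strand, to 4 short motifs: ATGCAAA (most of the octamer bound by POU factors), CATTGT (a SOX core), GGGCGG (the GC box) and CCACCC (the CACCC element of Krüppel-like factors). Neighbouring matches can share bases.
Pou5f1: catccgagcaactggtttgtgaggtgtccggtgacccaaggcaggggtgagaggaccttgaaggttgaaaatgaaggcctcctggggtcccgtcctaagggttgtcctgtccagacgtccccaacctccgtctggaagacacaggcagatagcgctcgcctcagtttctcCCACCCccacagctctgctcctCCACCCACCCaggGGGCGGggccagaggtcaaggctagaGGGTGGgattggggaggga
Sox2: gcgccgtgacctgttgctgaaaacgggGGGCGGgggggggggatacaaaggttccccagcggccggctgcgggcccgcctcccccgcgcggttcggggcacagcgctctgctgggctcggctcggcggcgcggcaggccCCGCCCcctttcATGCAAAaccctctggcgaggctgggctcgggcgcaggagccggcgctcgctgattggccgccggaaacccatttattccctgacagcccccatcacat
Klf4: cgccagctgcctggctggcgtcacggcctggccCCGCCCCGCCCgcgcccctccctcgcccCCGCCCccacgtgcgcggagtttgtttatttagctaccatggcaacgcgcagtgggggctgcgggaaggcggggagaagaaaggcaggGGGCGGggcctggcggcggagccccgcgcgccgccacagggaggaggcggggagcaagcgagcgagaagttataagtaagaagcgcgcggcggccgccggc
Pou5f1 holds 4 matches to CCACCC and 1 to GGGCGG, Sox2 holds 1 to ATGCAAA and 2 to GGGCGG, and Klf4 holds 4 to GGGCGG. Among 32851 RefSeq windows of the same length, 4.13% hold ATGCAAA, 10.7% CATTGT, 32.7% GGGCGG and 28.1% CCACCC. None of the 3 windows holds CATTGT. A match is a run of letters and not a measured binding site. Counts per gene add reads of the endogenous transcript and of the vector, so these data do not show which promoter a read came from.

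Pou5f1 was close to absent without the vector. In Young it ranged from 0 to 3.75 CPM with a median of 0.129 CPM. Young replicates 5 and 7 had 0 counts, which allows up to 0.174 and 0.169 CPM (3 counts). Old replicates 1 to 4 had 0.24, 0.157, 1.39 and 0.359 CPM, and Old control replicates 1 to 3 had 1.06, 0.338 and 0.556 CPM. Old OSK replicates 1 to 4 had 66.3, 97.4, 86.7 and 50.2 CPM. All 4 Old OSK libraries lay above every other library, the lowest of them 13.4-fold above the highest of the other 14. Young replicate 3 stood out among the libraries without OSK, with 92 counts (3.75 CPM, exact 95% Poisson interval 3.02 to 4.6, counting error only) against at most 7 in the other Young libraries.

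Sox2 was low but present in every library. It ranged from 2.49 to 5.57 CPM in Young, with a median of 3.79 CPM. Old replicates 1 to 4 had 4.79, 1.99, 2.65 and 3.8 CPM. Old control replicates 1 to 3 had 2.8, 15.9 and 4.64 CPM, and Old OSK replicates 1 to 4 had 84.5, 115.4, 102.8 and 70.0 CPM. The Old OSK libraries again stood apart, the lowest 4.4-fold above Old control replicate 2, which was itself the only library without OSK above 5.57 CPM.

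Klf4 was the most abundant of the 3 in CPM and the only one whose Old OSK values met those of another group. Young ranged from 5.68 to 50.9 CPM with a median of 15.2 CPM. Old replicates 1 to 4 had 11.7, 69.6, 44.0 and 216.2 CPM, a spread of 18.5-fold. Old control replicates 1 to 3 had 24.2, 31.4 and 33.6 CPM. Old OSK replicates 1 to 4 had 431.6, 362.2, 334.2 and 155.0 CPM. Old replicate 4, which received no vector, lay above Old OSK replicate 4, while the 3 Old control libraries lay below all 4 Old OSK libraries. At these levels 287 to 874 genes were more abundant than Klf4 in the Old OSK libraries, and 650 in Old replicate 4.

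**Figure D1:**
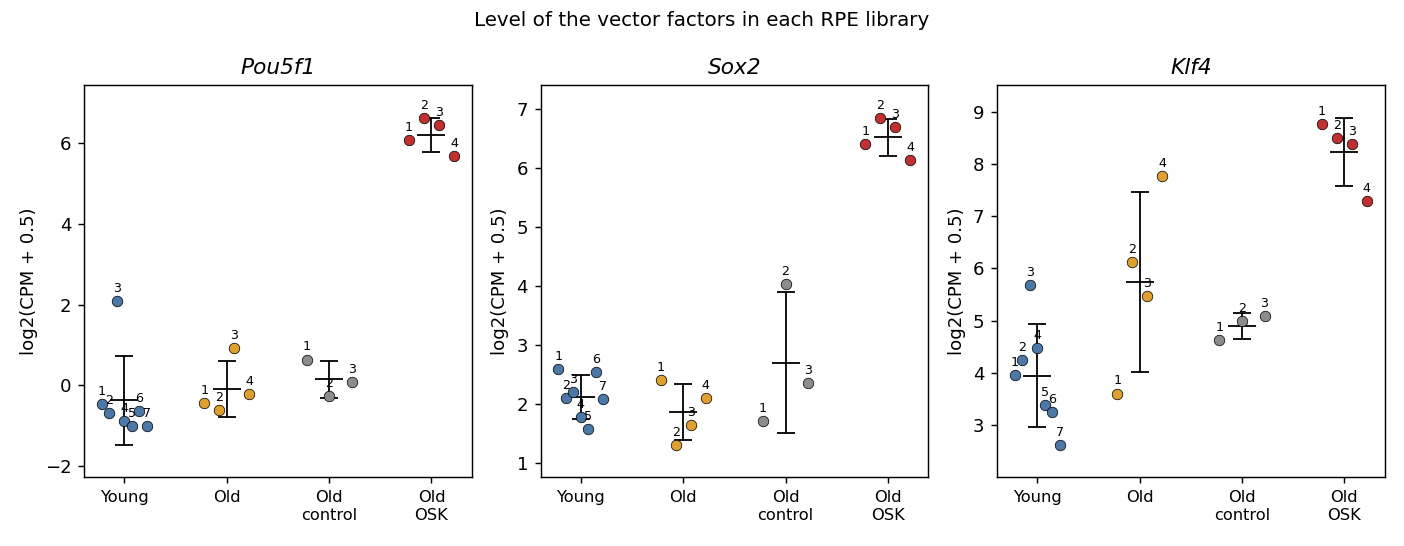
Level of Pou5f1, Sox2 and Klf4 in each library, as log2(CPM + 0.5), with replicate numbers beside the points; bars are the mean and SD of the group (7, 4, 3 and 4 libraries). Pou5f1 and Sox2 separate the 4 Old OSK libraries from the other 14, and for Klf4 Old replicate 4 (216.2 CPM) lies above Old OSK replicate 4 (155.0 CPM).

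The first comparison set Old OSK beside Old control, which has the activator alone. These groups also differed in M and in summed surface epithelium genes (1745 to 15520 CPM against 655 to 2347 CPM). Counts add endogenous and vector reads, so the differences are not the effect of the vector alone. Pou5f1 rose from 0.651 ± 0.37 CPM (SD, n = 3) to 75.1 ± 21.1 CPM (SD, n = 4), a difference of 6.86 in log2 (edgeR, SE 1.34, adjusted p = 0.024). Sox2 rose from 7.78 ± 7.09 to 93.2 ± 20 CPM (3.58, SE 0.5, adjusted p = 0.00343). Klf4 stood at 29.7 ± 4.93 and 320.7 ± 118 CPM (3.43, SE 0.85) and did not pass over all genes (adjusted p = 0.0631). Thus 2 of the 3 factors were called higher, where 0.408% of all genes tested were. In the 6 libraries numbered 1 to 3 in both groups, Klf4 passed in edgeR with replicate number as a block (3.66, adjusted p = 0.0307) and without it (3.66, adjusted p = 0.00604). These fits called 3.02% and 6.49% of all genes. They leave out Old OSK replicate 4, which had the lowest Klf4 of its group (155.0 CPM) and is its only library with M. Old control replicates 2 and 3 hold M and stay in. In these fits M is thus found in Old control alone, and part of the difference cannot be told apart from it. The pairing rests on the data, not on the labels, and the numbers within the library names differ in every pair. DESeq2 called Klf4 in all 18 libraries (3.44, adjusted p = 0.00029), where DESeq2 called 10.2% of all genes it adjusted. Without Old control replicate 1 the edgeR adjusted p of Pou5f1 was 0.13, and it passed in 2 of 7 fits that each left out 1 library, while its log2 fold change stayed between 6.5 and 7.39. Within the libraries without M (3 Old OSK, 1 Old control) the log2 fold changes of Pou5f1, Sox2 and Klf4 were 6.29, 5.17 and 3.96, and within those with M (1 and 2 libraries) 6.83, 2.81 and 2.28.

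Set against untreated Old, the log2 level of Pou5f1 rose by 7.03 (SE 1.19, edgeR adjusted p = 0.00712) and that of Sox2 by 4.81 (SE 0.47, adjusted p = 7.37e-05). Klf4 differed by 1.91 (SE 0.71, adjusted p = 0.21) with overlapping groups. Again 2 of 3 factors were called higher, against 0.652% of all genes. The Klf4 result turned on Old replicate 4, without which it was called (2.94, adjusted p = 0.0234). These values share the Old OSK libraries with the comparison above.

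Between untreated Old and Young, Klf4 was the 1 factor of 3 that was called, where 5.4% of all genes were called higher. It rose from 18.7 ± 15.3 CPM (SD, n = 7) to 85.4 ± 90.4 CPM (SD, n = 4), a difference of 2.19 in log2 (edgeR, SE 0.6, adjusted p = 0.0347), with overlapping groups. The summed surface epithelium genes ran from 463.9 to 11420 CPM in Old and from 98.0 to 2980 CPM in Young, and their values beside Klf4 are given below. The call did not survive the removal of Old replicate 4 (1.15, adjusted p = 0.296) and held in 3 of 11 fits that each left out 1 library. Adding M to the model gave 1.87 (adjusted p = 0.0818), and within the libraries without M it was 1.68 (adjusted p = 0.181). Sox2 (-0.28, SE 0.38, adjusted p = 0.667) and Pou5f1 (-0.15, SE 1.01, adjusted p = 0.941) were not called. For Pou5f1, Young replicate 3 decided the sign: without it the log2 fold change was 2.41 (adjusted p = 0.0342).

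The activator vector alone was compared with untreated Old. edgeR called 0 of the 3 factors, DESeq2 also called 0, and 1 (Sox2) had an unadjusted p under 0.05, while 0% of all genes were called. Log2 fold changes in Old control were 1.24 for Sox2 (SE 0.45), 0.17 for Pou5f1 (SE 1.23) and -1.52 for Klf4 (SE 0.78), with edgeR adjusted p of 0.9, 0.993 and 0.9. Without Old control replicate 2 the Sox2 value fell to 0.17. In order of group mean, Pou5f1 ran from Old OSK to Old control, Young and Old, and the last 3 did not differ beyond their spread (edgeR adjusted p of at least 0.941). Sox2 took the same order (93.2, 7.78, 4.0 and 3.31 CPM), with no call between Old control and Young (0.96, edgeR adjusted p = 0.144; 6.62% of all genes were called). Klf4 ran from Old OSK to Old, Old control and Young, and none of these neighbours differed at the threshold. All 3 factors were called higher in Old OSK than in Young, where 25.1% of all genes were, with log2 fold changes of 6.88, 4.54 and 4.09.

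Klf4 followed the transcripts of surface epithelium. The score of that tissue is the mean log2(CPM + 0.5) of its 5 marker genes, and Klf4 is not among them. Over the 14 libraries without OSK, Klf4 correlated with the score with a Pearson r of 0.954 (permutation p = 1e-05, the smallest that 100000 resamples can give; adjusted 5e-05 over 5 relations) and a Spearman rho of 0.916 (permutation p = 4e-05, adjusted 2e-04). Without the 2 libraries farthest from the median score (Old replicate 4 and Young replicate 7) r was 0.896. Within the 9 of these libraries without M it was 0.955 (permutation p = 0.00035, adjusted 0.00175). Within the 7 Young libraries r was 0.894 (permutation p = 0.0111, adjusted 0.0553) and rho 0.714 (permutation p = 0.0887, adjusted 0.276), and r dropped to 0.439 without Young replicates 3 and 7, so there it rests on those libraries. This list was set beside Klf4 after its levels had been seen. The relations chosen earlier were weaker: r = 0.721 with the 12 immediate early genes (permutation p = 0.00317, adjusted 0.00528) and 0.237 with the 8 endothelial genes (permutation p = 0.42, adjusted 0.42).

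All 4 Old OSK libraries lay above the line of Klf4 on this score. Fitted over the 14 libraries without OSK on log2 scales, the line had a slope of 0.74, and these 14 libraries lay between -0.67 and 0.65 log2 units from it. Old replicate 4 was 0.33 above the line. Old OSK replicates 1 to 4 were 1.06, 1.19, 1.2 and 2.03 above it, that is 2.08-, 2.27-, 2.3- and 4.08-fold. Replicates 1 to 3 had scores of 10.41, 9.89 and 9.71. The only fitted library with a score above that of Young replicate 3 (7.87) was Old replicate 4 (10.04). The line at replicates 1 to 3 is thus poorly fixed, and replicate 1 lay beyond the fitted range. Old OSK replicate 4 had the lowest Klf4 of its group but the widest distance from the line; its score (7.11) lay within the range of Old control (5.97 to 7.47). In a model that also held the score, chosen after seeing the data, the log2 fold change of Klf4 between Old OSK and Old control was 1.71 (SE 0.34, edgeR adjusted p = 0.0498) and between Old OSK and Old 1.35 (SE 0.28, adjusted p = 0.0416). Between Old and Young it was 0.43 (SE 0.29, adjusted p = 0.48). Sox2 kept a value of 3.41 between Old OSK and Old control (SE 0.52, adjusted p = 0.0105), and that of Pou5f1 was 5.46 (SE 1.1, adjusted p = 0.0574). The score of Old OSK replicates 1 to 3 lay above that of every Old control library. It was measured in the treated libraries, so a model with the score cannot part tissue mix from an effect of OSK. This limit holds wherever the score is a covariate.

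**Figure D2:**
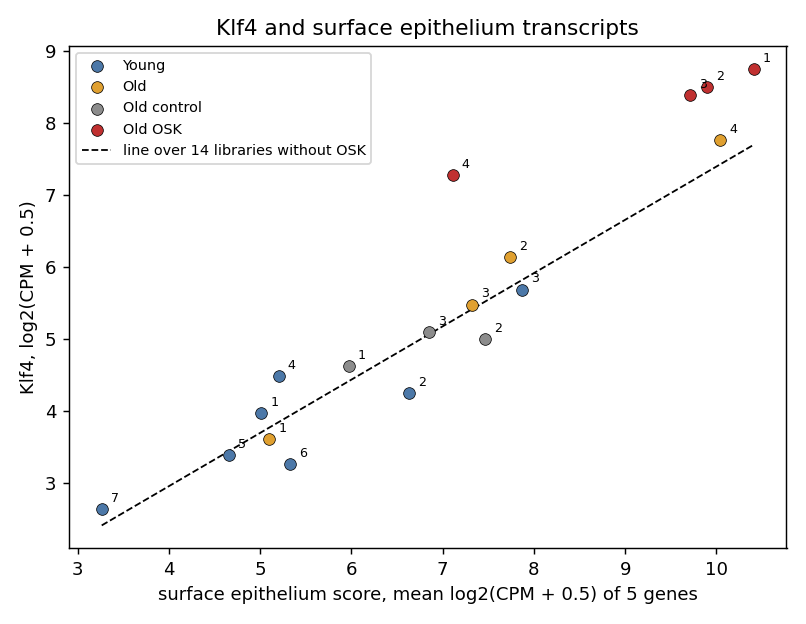
Klf4, as log2(CPM + 0.5), against the surface epithelium score of each library; points are libraries with their replicate numbers and the dashed line was fitted to the 14 libraries without OSK. The Young, Old and Old control libraries follow the line (r = 0.954), and the 4 Old OSK libraries lie 1.06 to 2.03 log2 units above it. Old replicate 4 is the only fitted library near the scores of Old OSK replicates 1 to 3.

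Sox2 without the vector moved with Müller glia transcripts. Its level correlated with the score of 8 Müller glia genes with r = 0.767 (permutation p = 0.00195, adjusted 0.00487) and rho = 0.705 (permutation p = 0.00597, adjusted 0.0149) over the 14 libraries. Without Old control replicate 2 and Young replicate 7 r was 0.68, and within the 9 libraries without M it was 0.712 (permutation p = 0.0326, adjusted 0.0544). Within the 7 Young libraries it was 0.609 (permutation p = 0.155, adjusted 0.388). Old control replicate 2 had both the highest Sox2 of the 14 (15.9 CPM) and the highest Müller glia score (7.67, against 5.44 and 5.97 in the other Old control libraries). It also led the rod genes and the amacrine score (4.0, against 1.78 and 1.74). The part of these other retinal transcripts in its Sox2 level was not tested. The relation with the amacrine score (r = 0.535, permutation p = 0.0546; adjusted 0.0682) rested on single libraries, since r was -0.25 without Old control replicate 2 and Old replicate 1. The Old OSK libraries had Müller glia scores of 6.02 to 6.65, inside the range of the other libraries, with Sox2 at 70.0 CPM or more.

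**Figure D3:**
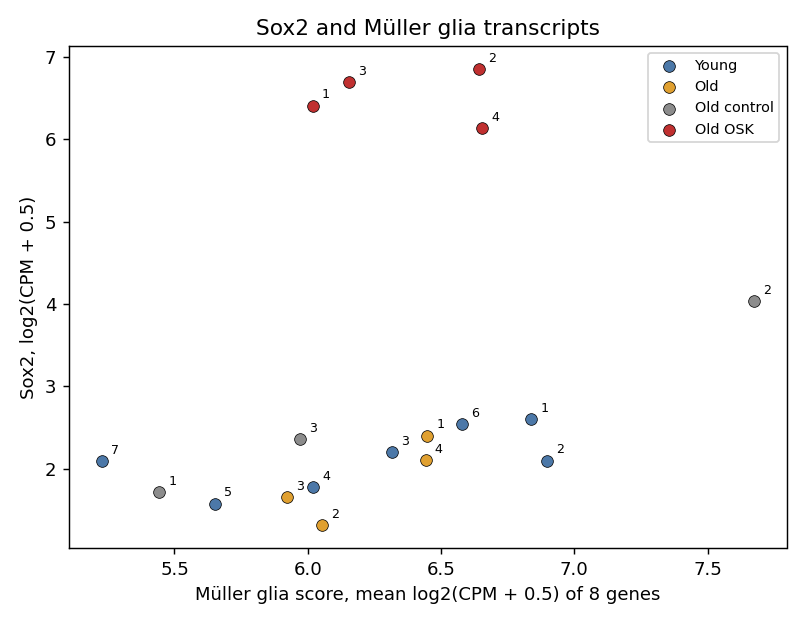
Sox2, as log2(CPM + 0.5), against the Müller glia score (mean log2(CPM + 0.5) of 8 genes) in each library. Old control replicate 2 (15.9 CPM) is at the right of the libraries without OSK, and the 4 Old OSK libraries (70.0 to 115.4 CPM) lie above all of them at middle scores.

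Levels were then compared between the factors per length. In published TRE-OSK vectors the 3 reading frames sit on a single transcript, separated by self-cleaving peptide sequences. The labels do not describe the layout used here, nor whether its coding sequences are mouse or were part of the authors' reference, so coding length was taken as the common scale and every ratio below holds for counted reads only. The coding sequences are 1059 bases (Pou5f1), 960 bases (Sox2) and 1452 bases (Klf4), which is 77.8%, 46.7% and 47.9% of the annotated transcripts. Per kilobase of coding sequence, Old OSK libraries held 70.9 ± 19.9 CPM of Pou5f1, 97.1 ± 20.9 CPM of Sox2 and 220.9 ± 81.1 CPM of Klf4 (SD, n = 4). The order Klf4, Sox2, Pou5f1 held in all 4 libraries.

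Sox2 and Pou5f1 kept a nearly fixed ratio. Per coding kilobase Sox2 was 1.41, 1.31, 1.31 and 1.54 times Pou5f1 in Old OSK replicates 1 to 4, a coefficient of variation of 7.92%. Over the same libraries Pou5f1 itself varied by 28.0% and Sox2 by 21.5%, both highest in replicate 2 and lowest in replicate 4. The ratio of Klf4 to Pou5f1 was 4.75, 2.71, 2.81 and 2.25, a coefficient of variation of 35.3%. It was highest in replicate 1, the library with the most surface epithelium transcripts (15520 CPM), and lowest in replicate 4, the one with the fewest (1745 CPM).

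After the mean of Old control was subtracted from each factor, the excess of Klf4, per coding kilobase, was 4.46, 2.51, 2.58 and 1.85 times that of Pou5f1. When the level on the epithelium line was subtracted from Klf4 instead, the ratios to the Pou5f1 excess were 2.49, 1.53, 1.6 and 1.73. For replicates 1 to 3 that level lies where Old replicate 4 was the only fitted library. The Sox2 excess was 1.29, 1.23, 1.22 and 1.39 times that of Pou5f1. This is arithmetic on 4 libraries, and the position of reads along each transcript, which could weigh the 3 coding sequences unequally, was not tested.

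**Figure D4:**
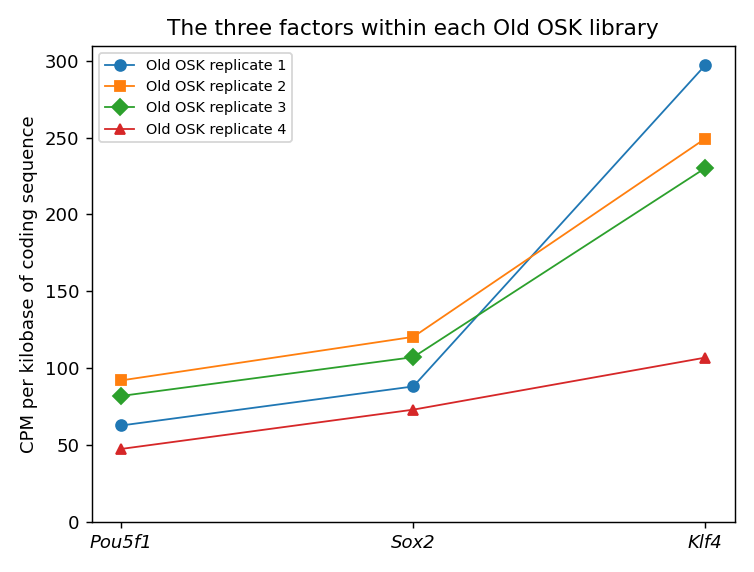
CPM per kilobase of coding sequence of the 3 factors in each of the 4 Old OSK libraries, joined by a line per library. Pou5f1 and Sox2 move in parallel between libraries, while Klf4 spans 106.8 to 297.2 CPM per kilobase.

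The ratios of CPM in Old OSK and Old control are a description, since their direction was largely set in advance. In Old control Pou5f1 averaged 0.651 CPM, Sox2 7.78 CPM and Klf4 29.7 CPM. Adding all 3 factors to these levels lowers both ratios to Pou5f1, so their p-values restate the rise of Pou5f1. The mean log2 ratio of Klf4 to Pou5f1 (0.5 CPM added to each) was 2.04 ± 0.46 in Old OSK (SD, n = 4) and 4.75 ± 0.67 in Old control (SD, n = 3), a difference of -2.71 (two-sided exact permutation p = 0.0286, the smallest that 35 splits can give; adjusted 0.0429 over 3 ratios). That of Sox2 to Pou5f1 was 0.33 ± 0.11 and 2.55 ± 1.62, a difference of -2.22 (exact permutation p = 0.0286, adjusted 0.0429). These sizes depend on the added value, since Pou5f1 in Old control lay near it: with 0.1 CPM added they were -3.37 and -2.79, and with 2 CPM -1.56 and -1.33, each with the same exact permutation p. The log2 ratio of Klf4 to Sox2 was 1.71 ± 0.49 and 2.2 ± 1.08, a difference of -0.49 (exact permutation p = 0.429, adjusted 0.429). Pou5f1 thus made up 15.8 ± 3.01% of the summed CPM of the 3 factors in Old OSK and 1.97 ± 1.61% in Old control. The sum of all 3 was 489.1 ± 145.0 CPM with OSK, against 38.1 ± 9.8 CPM for the activator alone.

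Of the pluripotency network, 32 genes such as Nanog, Fgf4 and Lin28a were listed and 19 had enough counts to be tested. Between Old OSK and Old control edgeR called 0 of them, against 0.728% of all genes. An unadjusted edgeR p under 0.05 was found for 7 of the 19, and for at least 4058 of the 15944 genes tested. Nr0b1, Fgf4 and L1td1 are among these 7. DESeq2 called 1 (Cdh1) of the 14 to which it gave an adjusted p, against 10.2% of all genes. The median log2 fold change was 0.48 over the 19 genes, with 17 of 19 positive, and -0.03 over all genes. Nr0b1, Fgf4 and L1td1 reached 10 counts in Old OSK libraries only. They passed the low-count filter through that group and were bound to be positive. The median and the count of positives are thus a description. Without Old control replicate 2 edgeR called 2 of 19 genes of the list, where it called 17.9% of all genes, and without Old OSK replicate 4 it called 1 of 18, where it called 11% of all genes. With the epithelium score as a covariate it called 0. In Old against Young, edgeR called 3 of the 19 higher, Gdf3 (4.89), Epcam (2.36) and Tfcp2l1 (1.57 on the log2 scale), where 5.4% of all genes were. With the epithelium score Gdf3 was at 5.04 (adjusted p = 0.00113), while Epcam (0.99, adjusted p = 0.19) and Tfcp2l1 (0.93, adjusted p = 0.217) did not pass. The list holds epithelial genes too: Cdh1 and Epcam, cell adhesion proteins, and Klf5. Cdh1 had a log2 fold change of 2.19 (adjusted p = 0.136) and Klf5 of 2.11 (adjusted p = 0.148). With the epithelium score as a covariate these were 0.17 and 0.11, where tissue mix and an effect of OSK cannot be told apart.

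The lowest p in the list belonged to Nr0b1, Fgf4 and L1td1, which passed the filter through Old OSK, so their values are a description. Fgf4, a growth factor whose enhancer is a classic joint site of Oct4 and Sox2, had 0.92, 1.75, 1.34 and 1.24 CPM (19 to 42 counts) in Old OSK replicates 1 to 4. In the other 14 libraries it reached at most 0.285 CPM (7 counts) and was at 0 counts in 10. Its log2 fold change over Old control was 4.61 (SE 1.35, edgeR adjusted p = 0.0806), and 3.93 with the epithelium score as a covariate. Nr0b1, a nuclear receptor of the stem cell network, had 5, 42, 18 and 20 counts in Old OSK replicates 1 to 4 and 0 counts in 13 of the other libraries. With 3 counts over Old control as the floor, it was at least 23-fold higher in Old OSK (edgeR adjusted p = 0.072). L1td1, an RNA-binding protein of stem cells, had 0.968, 2.04, 1.03 and 0.217 CPM in Old OSK and at most 0.198 CPM in Old control (3.13, SE 1.15, adjusted p = 0.114). For Fgf4 and Nr0b1 all 4 Old OSK libraries lay above the other 14, at levels far under those of the factors themselves. For Nr0b1 the margin was 5 counts (0.242 CPM) in Old OSK replicate 1 against 3 counts (0.144 CPM) in Old replicate 1, within counting error. Among 12787 other genes whose log2 CPM averaged 1 or more, 138 also had every Old OSK library above the rest. Nanog, the homeobox gene at the centre of the network, stayed at 0 to 7 counts in every library and was not tested.

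**Figure D5:**
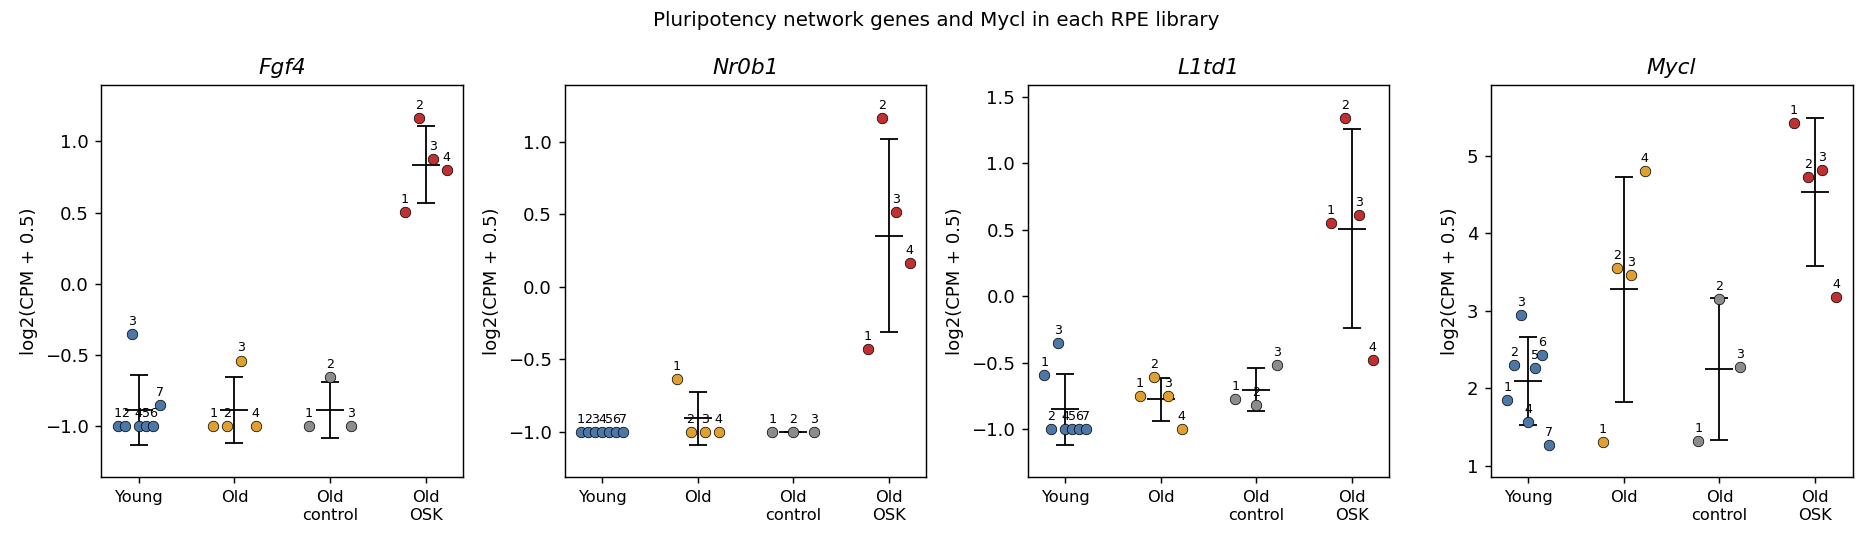
Fgf4, Nr0b1, L1td1 and Mycl in each library as log2(CPM + 0.5), with replicate numbers; bars are the mean and SD of the group. Fgf4 and Nr0b1 are higher in the 4 Old OSK libraries than in the other 14, for Nr0b1 by a margin within counting error. Mycl is also high in Old replicate 4 (27.4 CPM).

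Myc, the reprogramming factor that the OSK mix leaves out, had 1.65, 3.42 and 1.82 CPM in Old control replicates 1 to 3 and 8.28, 6.07, 6.9 and 2.67 CPM in Old OSK replicates 1 to 4. Its log2 fold change was 1.37 (SE 0.69, edgeR adjusted p = 0.22). Mycl had 1.99, 8.42 and 4.33 CPM in Old control and 42.5, 25.9, 27.6 and 8.53 CPM in Old OSK (2.4, SE 0.73, adjusted p = 0.0841). With the epithelium score as a covariate the value for Mycl was 0.83 (adjusted p = 0.68). DESeq2 called Mycl (2.43, adjusted p = 0.0102), the 1 of 3 Myc family genes it called. Mycn differed by 0.19 (SE 0.93). In Old against Young, Myc rose by 2.0 on the log2 scale (SE 0.54, adjusted p = 0.0334), from 1.25 ± 1.08 to 5.07 ± 3.1 CPM. With the epithelium score it did not pass (0.83, adjusted p = 0.182).

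Paralogs, which share DNA-binding domains with the factors and can share reads with them, were counted next. edgeR called 0 of 11 POU genes, 0 of 17 SOX genes and 0 of 14 Krüppel-like genes tested between Old OSK and Old control, with 2, 7 and 6 at an unadjusted p under 0.05. The edgeR share over all genes was 0.728%, and at least 4058 of the 15944 genes tested had an unadjusted edgeR p under 0.05. DESeq2 called 0 of 10, 2 of 16 (Sox15 higher, Sox6 lower) and 4 of 14 (Klf3, Klf6, Klf15 and Klf16) with an adjusted p, against 10.2% of all genes. The list medians were 0.26, 0.03 and 0.24 on the log2 scale. Pou5f2, a POU gene related to Pou5f1, had a mean of 0.758 ± 0.539 CPM with OSK (n = 4) and 0.498 ± 0.058 CPM for the activator alone (n = 3). Klf3, a repressor of the Krüppel-like family, had a log2 fold change of 1.05 (SE 0.26, adjusted p = 0.0631) and Klf6 of 1.05 (SE 0.33, adjusted p = 0.0886). With the epithelium score these were 0.55 (adjusted p = 0.603) and 0.34 (adjusted p = 0.701). Klf15 stood at -0.79 (SE 0.24, adjusted p = 0.0841), and Sox6, a SOX factor without an activation domain of its own, at -0.45 (SE 0.13, adjusted p = 0.0788). With age, 4 SOX genes fell (Sox1, Sox4, Sox6 and Sox12), where 4.16% of all genes were called lower. Sox6 fell from 35.01 ± 4.1 CPM (SD, n = 7) to 27.0 ± 3.08 CPM (SD, n = 4) between Young and Old, by 0.38 on the log2 scale (edgeR adjusted p = 0.0399). With the epithelium score its log2 fold change was -0.42 and did not pass (edgeR adjusted p = 0.0793).

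Genes with the step shape of Pou5f1 and Sox2 were sought by the gap between the lowest Old OSK library and the highest of the other 14, on log2 CPM. The gap was 3.71 for Pou5f1, 2.13 for Sox2 and -0.48 for Klf4. Among 12787 other genes whose log2 CPM averaged 1 or more, 138 had a positive gap, and 194 had all Old OSK libraries below the other 14. The widest positive gaps belonged to Col11a2, a fibrillar collagen chain (1.95), Avil, the actin-binding protein advillin (1.83), Pcolce2, a procollagen processing enhancer (1.34), Dnah17, a dynein heavy chain (1.16), Plekha4 (1.07) and Gjb1, the gap junction protein connexin 32 (1.04). Col11a2 had 34.4, 75.7, 87.7 and 42.9 CPM in Old OSK replicates 1 to 4 and 2.92 to 8.83 CPM elsewhere. Avil had 21.1, 24.4, 18.8 and 13.4 CPM in Old OSK and 0.766 to 3.71 CPM elsewhere. No other gene of the 12787 thus had a gap as wide as that of Sox2. These genes were picked for the gap, and their values are a description.

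Over the 14 libraries without OSK, the endogenous pattern of each factor had its own company. The 3 genes with the highest Pearson r of log2 CPM to Klf4 were Omp (0.968), Lrrk1 (0.963) and Fosl2 (0.962), those to Sox2 were Pja1 (0.915), Herc3 (0.894) and Mab21l1 (0.88), and those to Pou5f1 were Zfp646 (0.782), Pprc1 (0.771) and Skil (0.756). These are the top 3 of 12787 genes over 14 libraries that share depth and tissue mix, and the values for Pou5f1 rest on 0 to 92 counts per library.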

How the data were processed

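RNA from the RPE of 18 mouse libraries was measured as polyA RNA, amplified by SMART-Seq and tagged by Nextera XT, per the labels' protocols. The deposited values are raw counts per gene symbol, all 18 columns matched by title. The submitters' processing notes list STAR 2.7.1a, featureCounts 1.6.2 and mouse and human builds with no role; annotation, strand setting and handling of multi-mapping reads are not given in the sources used here. Promoters, coordinates and coding lengths are from RefSeq and GENCODE on the mouse build.

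Counts were filtered (filterByExpr, minimum count 10, total 15), scaled by TMM and fitted with 4 group means over all libraries in edgeR 4.0.16 (glmQLFit, glmQLFTest; R 4.3.3), with Benjamini-Hochberg adjustment. The fit was tested on simulated data. DESeq2 1.42.0 was an alternative. Genes of like pattern needed a mean log2 CPM above or equal to 1; named list genes were the 3 with the lowest p per list. Genes named to spell out small counts of calls were chosen after their values were seen. Members and lists were chosen with earlier results of these data known. Replicate libraries differed far beyond sampling noise (chi-square per gene at least 21.3 in 36 pairs). Between Old OSK and Old control, deviations from the group means under the same number gave r = 0.103, 0.421 and 0.339, so numbers were used as pairs there only. The numbers within the library names differ in each of these pairs. Other alternatives are given below.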

Additional observations from a re-analysis of the deposited data

Results flagged for a closer look

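Of 18 groups of values examined, 4 held a library far from the others of its group, and 3 of the 4 concern Young replicate 3. The limit used flags about 1 in 20 groups by chance only if values are normal. CPM values are skewed and the ratio reuses the Pou5f1 value of that library, so this rate does not hold here. Pou5f1 stood at 3.75 CPM in Young replicate 3, while the next Young library had 0.227 CPM. Klf4 stood at 50.9 CPM in the same library, while the next had 21.9 CPM; its surface epithelium genes summed to 2980 CPM, the most in Young. The log2 ratio of Sox2 to Pou5f1 was 0.12 there and at least 2.58 in the other Young libraries. Pou5f1 stood at 1.39 CPM in Old replicate 3, while the next Old library had 0.359 CPM.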

How the results depend on the processing

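Settings other than leaving out 1 library are counted here, and some of them use fewer libraries. Of the values for the factors and their ratios, 131 kept direction and side of the threshold. Another 13 kept direction but no longer passed, 5 newly passed and 1 changed sign. The number of called genes stayed within 1.5 times its value in 4 settings and moved further in 9. For Old OSK against Old control the number of called genes was 116, and it was 177 with library totals, 58 with M as a covariate, 35 with the epithelium score, 1583 with DESeq2, 2 in the 2 groups alone, 1347 without the M libraries and 0 within the 6 M libraries (edgeR; 1 Old OSK library, and 153 genes at an unadjusted p under 0.05). With the replicate block it was 461, and 990 in the same libraries without it. Leaving out 1 library gave 13 (without Old control replicate 1) to 2881 (without Old control replicate 2); it was 68 without Old control replicate 3 and 52, 41, 36 and 1738 without Old OSK replicates 1 to 4.

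Klf4 in Old OSK against Old control passed with the block (3.66) and in the same libraries without it (3.66). Both fits lack Old OSK replicate 4 and hold M in Old control alone. Klf4 also passed with DESeq2 (3.44) and with the score (1.71). In Old OSK against Old it passed with the score (1.35). Klf4 in Old against Young did not pass with M (1.87), the score (0.43), the libraries without M (1.68), the 2 groups alone (2.19; adjusted p = 0.0564), the block (1.14) or its libraries unblocked (1.67). Pou5f1 in Old OSK against Old control did not pass with the score (5.46), nor did Sox2 in the 2 groups alone (3.57). Within libraries without M (1 Old control library) Pou5f1 was 6.29, and with M (1 Old OSK library) Pou5f1 was 6.83 and Sox2 2.81; these fits have an arm of 1 library, assumed to vary like the others, so a p above the threshold says little there. With the block, Pou5f1 (7.28) and Sox2 (4.83) in Old OSK against Old did not pass, but there the numbers do not pair the libraries. Sox2 in Old control against Old was -0.24 without the M libraries. The cause was not tested.

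Leaving out each library gave, for Old OSK against Old control, 6.5 to 7.39 (Pou5f1), 3.18 to 4.61 (Sox2) and 3.21 to 3.62 (Klf4); against Old, 6.77 to 8.12, 4.64 to 5.04 and 1.54 to 2.94; for Old against Young, -1.24 to 2.41, -0.5 to -0.11 and 1.15 to 2.67; for Old control against Old, -0.36 to 1.26, 0.17 to 1.64 and -1.89 to -0.49. The log2 ratios lay between -3.1 and -2.46 (Klf4 to Pou5f1), -2.96 and -1.35 (Sox2 to Pou5f1) and -1.11 and -0.14 (Klf4 to Sox2); with 6 libraries at most 20 splits exist, so none can pass after adjustment. Pou5f1 in libraries without OSK rests on few counts, which limits its fold changes.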

Other observations

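The genes next to each factor in the genome were read as well, since they are not on the vector. Tcf19, a gene of cycling cells 1.95 kb beyond Pou5f1, had 3.31, 3.69 and 4.13 CPM in Old control replicates 1 to 3 and 8.96, 8.02, 9.88 and 4.03 CPM in Old OSK replicates 1 to 4 (log2 fold change 1.06, SE 0.32, edgeR adjusted p = 0.0841). It was also at 7.83 CPM in Old replicate 4. H2-Q10, 31.5 kb on the other side, differed by -0.18 (SE 0.29). Dnajc19 and Atp11b, the neighbours of Sox2 at 568.6 kb and 1102 kb, differed by 0.06 (SE 0.16) and 0.18 (SE 0.24), and Rad23b, 134.9 kb from Klf4, by -0.06 (SE 0.12). None of these 5 genes was called in Old OSK against Old control.

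Immediate early genes were higher with age in 5 of 12 members (edgeR; 5.4% of all genes were called higher), with a list median of 1.03 on the log2 scale. In Old OSK against Old control edgeR called 0 of the 12, against 0.728% of all genes, and 3 had an unadjusted p under 0.05. An unadjusted edgeR p under 0.05 was reached there by at least 4058 of the 15944 genes tested. DESeq2 called 1 (Junb), against 10.2% of all genes.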
